A study of Mus musculus with 12 samples.

Results

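Pools of 5 isolated myofibers were compared with whole muscle in the extensor digitorum longus (EDL), a fast-contracting muscle of the mouse hindlimb, from C57BL/6 mice. A myofiber is a single muscle cell with many nuclei, and whole muscle holds the fibers together with vessels, nerve, connective tissue, fat and immune cells. The members were chosen by label: 3 libraries labelled as 5 EDL myofibers and 3 labelled as whole EDL muscle, 6 of the 12 libraries of the series, with all 55573 genes of the count table. The labels give both groups the same strain and name no genetic change, drug treatment, age, sex or animal of origin. All libraries were made from total RNA with SMART-Seq HT, a kit that copies full-length cDNA from very small amounts of RNA. Trizol was used to extract the RNA of whole muscle. For single myofibers the labels describe lysis in the buffer of the kit, and they do not describe the pools separately. How the fibers were freed from the muscle, and whether the 5 fibers of a pool or the 3 replicates came from 1 animal, is not stated in the labels, so fiber isolation, RNA preparation and the loss of other cell types cannot be told apart here. The spread behind each p-value is therefore that of these libraries and may be technical.

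Cells that are disturbed transcribe immediate early genes within minutes, without new protein synthesis. These genes encode transcription factors such as Fos, Jun and Egr1, and feedback proteins that destabilise mRNA or switch off kinases. Heat shock genes answer misfolded protein through the factor Hsf1, metallothionein genes answer zinc and other metals through Mtf1, and Atf4 with Ddit3 carries the integrated stress response. The EDL of the mouse is built mostly of fast fibers that use the myosin heavy chain Myh4 and live largely on glycolysis, with few slow, Myh7-positive fibers.

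The libraries held 20880728, 8434050 and 24719718 counted reads in pools 1 to 3 and 8088137, 19807973 and 20895762 in muscle libraries 1 to 3. Levels are given in CPM, the reads of a gene per 1000000 reads of the library total after TMM scaling, which corrects for libraries dominated by a few transcripts. The 8 markers fixed for the labelled fast fiber (Myh4, Myh1, Acta1, Ckm, Mylpf, Tnnt3, Actn3 and Pvalb) were abundant in all 6 libraries, the lowest value being 320.00 CPM for Myh1 in pool 3. Their summed level was 100.5%, 63.3% and 314% of the mean of whole muscle in pools 1, 2 and 3. Pool 3 stood apart from the other pools. Mitochondrial ribosomal RNA took 38.3, 34.2 and 2.39% of reads in pools 1 to 3 and 2.76, 2.34 and 2.63% in muscle libraries 1 to 3, so that pool 3 lay in the range of whole muscle. Nuclear protein-coding genes took 36.4, 34.8 and 85.2% in the pools and 88, 90.5 and 89.8% in muscle, where every pool lay below every muscle library (exact permutation p = 0.1, the smallest that 3 against 3 libraries allow). Clopper-Pearson intervals (95%) on these shares reached at most 0.0320 percentage points to either side and cover counting error only. Reads on predicted genes and pseudogenes made up 14.2, 10.8 and 1.75% in the pools against 2.52, 2.63 and 3.17% in muscle. As a background, 1504 receptor genes of taste and of the olfactory and vomeronasal organs, which muscle should not express, were counted: 58.1, 68.8 and 4.59% of them had a read in pools 1 to 3 and 2.33, 4.85 and 3.19% in muscle. After thinning to 8088137 reads each, 26245, 33933 and 16321 genes had a read in the pools and 19220, 19618 and 19452 in muscle. The correlation of log2 CPM was 0.946 between pools 1 and 2 but 0.737 and 0.671 between pool 3 and these, against 0.976 to 0.987 among muscle libraries. Because of this, the counts of the gene lists described below are given with all 3 pools and again without pool 3.

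**Figure D1:**
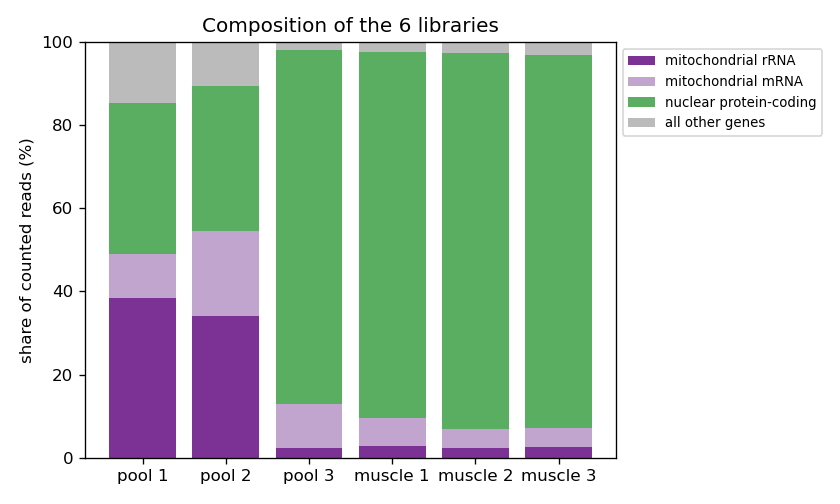
Share of counted reads (%, y axis) on mitochondrial ribosomal RNA, mitochondrially encoded mRNA, nuclear protein-coding genes and all other genes, as stacked bars for each of the 6 libraries. Pools 1 and 2 carry 38.3% and 34.2% mitochondrial ribosomal RNA, while pool 3 (2.39%) sits beside the muscle libraries.

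Of 14764 genes tested with edgeR's quasi-likelihood test, 684 rose in the pools (4.63%) and 623 fell (4.22%) at a Benjamini-Hochberg adjusted p under 0.05, together 1307 genes or 8.85%. A further measure of separation, all 3 pools above or all 3 below every muscle library, held for 2191 genes upward (14.8%) and 3290 downward (22.3%). The median log2 fold change over all genes tested was -0.03. Other scalings moved this median upward, to 0.13 with RLE factors and to 0.15 with protein-coding genes only, and the split with them: 906 rose and 518 fell with RLE factors, 878 and 539 without mitochondrial genes, and 924 and 468 among protein-coding genes alone, so that 63.6%, 62.0% and 66.4% of calls were rises against 52.3% here. DESeq2 called 2414 genes higher and 930 lower, 72.2% of them rises. The number of calls rested on which libraries were present. Without pool 3 there were 4132 rises (25.2% of 16378 genes tested) and 3788 falls (23.1%), and without pool 1 or pool 2 the calls made up 1.31% and 6.91% of genes. Leaving out 1 muscle library left 7, 46 and 45 calls for muscle 1, 2 and 3, which is 0.0429%, 0.279% and 0.279% of genes. In each of these fits every call shared with the full comparison kept its direction. The 7 genes called in the full comparison and in all 6 fits with 1 library left out included Fosb and Nr4a3, which rose, and Mbp, Cyp2e1, Retnla and Cdo1, which fell. Counts within a list are to be read beside the shares over all genes, 4.63% higher and 4.22% lower with all pools and 25.2% and 23.1% without pool 3, since a count near them shows nothing about the list. The lists were chosen with earlier results of these data known, so a count above these shares describes the list and is no independent test. Where a range of adjusted p stands beside a gene below, it is that over the 6 fits with 1 library left out.

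Predicted genes and pseudogenes gave 127 rises and 19 falls among 1892 tested, with a median log2 fold change of 0.71. Split by exon length into 5 equal bins, the shift had no single direction with length. The bin with the shortest exons (2168 bases and less) had a median of 0.13 with 200 rises and 153 falls, the next from 2169 bases a median of -0.33 with 105 and 192, and the third from 3493 bases a median of -0.24 with 94 and 148. The next longer bin, from 5018 bases, had a median of -0.04 with 112 rises and 89 falls, and the bin with the longest exons (7367 bases and more) a median of 0.36 with 173 and 41. Both measures moved with the comparison, and their part in the calls was not tested. A gene's density of reads in the pools was also set against the receptor genes above: 1 of the 684 genes that rose lay at or under their 99th percentile in the pools. Of the 623 genes that fell, 124 did, and their levels in the pools cannot be told from this background, so that their fold changes rest on reads at background level. Among genes named below these are Myh7, Mbp, Adipoq, Pi16, Tnmd, Cma1, Retnla, Pck1, Hp, Cyp2e1, Cdo1, Mfap4, Ucp1 and F13a1.

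Many response genes rose. Across the 9 lists of response genes, 200 different genes were tested, of which 91 rose and 5 fell, and these 91 made up 13.3% of all rises. Without pool 3, 134 of the 200 rose and 30 fell. In the immediate early list 50 of 51 genes could be tested, and 34 rose and 1 fell, beside 4.63% and 4.22% of all genes. The median log2 fold change was 2.84 beside -0.03 over all genes, and 39 members had every pool above every muscle library (14.8% of all genes). Without pool 3 the list gave 42 rises and 4 falls (median 3.1), where 25.2% and 23.1% of all genes were called, and it gave 23, 37 and 46 calls without pool 1, 2 or 3 and 2, 9 and 9 without muscle library 1, 2 or 3.

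Fosb, an AP-1 subunit of the Fos family, reached 222, 126 and 207 CPM in pools 1 to 3 and 0.233, 0.0673 and 0.201 CPM in muscle libraries 1 to 3, log2 fold change 10.14 ± 0.63 (SE), adjusted p = 0.00156, with adjusted p between 3.78e-07 and 0.0321 when 1 library was left out. Fos stood at 933, 721 and 1857 CPM in the pools and 7.16, 8.65 and 9.27 CPM in muscle. Fos rose by 7.13 ± 0.59 (SE) on the log2 scale, adjusted p = 0.0037 (3.78e-07 to 0.0527). Here pool 3 was the highest pool, although it was the lowest for mitochondrial ribosomal RNA. Nr4a3, an orphan nuclear receptor induced by many stimuli, measured 160.1, 88.4 and 133 against 0.622, 0.437 and 0.569 CPM. Nr4a3 rose by 7.87 ± 0.46 (SE) on the log2 scale, adjusted p = 0.00156. Egr1, a zinc-finger factor, varied little between pools, at 1079, 1149 and 1189 CPM, with 10, 11.9 and 14.7 CPM in muscle. Egr1 rose by 6.54 ± 0.45 (SE) on the log2 scale, adjusted p = 0.00175 (3.78e-07 to 0.0527). Atf3, a stress-induced factor of the Atf/Creb family, reached 487, 256 and 1202 CPM in the pools and 5.06, 4.0 and 5.52 CPM in muscle. Atf3 rose by 7.06 ± 0.74 (SE) on the log2 scale, adjusted p = 0.00464 (9.29e-07 to 0.0658). Pools and muscle libraries did not overlap in any of these 5 genes. All 7 members of the Fos and Jun families rose, and Fosl2, Jun, Junb and Jund had log2 fold changes of 2.8, 2.58, 4.87 and 2.37. Fosl1 had no read in any muscle library and 5.82, 2.89 and 2.95 CPM in the pools, at least 94.4-fold higher when 3 reads are assumed over the muscle group. Fosl1 and Jund overlap other genes in the annotation (Ccdc85b and Gm11175), and without stated strand settings their reads cannot be fully separated.

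Several feedback genes of the same response rose as well. Btg2, an antiproliferative gene, stood at 625, 437 and 1334 CPM in the pools and 22.9, 25 and 24.6 CPM in muscle. Btg2 rose by 5.05 ± 0.56 (SE) on the log2 scale, adjusted p = 0.00565 (1.31e-06 to 0.083). Zfp36, which destabilises cytokine mRNA, measured 72.9, 32.6 and 149.6 against 6.54, 9.35 and 8.13 CPM. Zfp36 rose by 3.41 ± 0.58 (SE) on the log2 scale, adjusted p = 0.0188 (9.49e-05 to 0.143). The phosphatases Dusp2 and Dusp5 rose by 4.2 and 5.23 on the log2 scale, the pseudokinase Trib1 by 5.2, and Gadd45a, Gadd45b and Gadd45g by 1.51, 3.11 and 4.22. The only member of the list called lower was Zfp36l2, a relative of Zfp36, at 1.69, 2.89 and 0.472 CPM in the pools and 14.5, 12.1 and 10.2 CPM in muscle. Zfp36l2 fell by 2.94 ± 0.62 (SE) on the log2 scale, adjusted p = 0.032 (0.000351 to 0.148). The 15 members that did not pass the test included Egr3, Dusp1, Srf and Klf2.

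The promoters of 2 of these genes are shown because members that rose together are classically driven by shared elements, the cyclic AMP response element (CRE, TGACGTCA) and the CArG box bound by serum response factor. Each run is the 250 bases before the RefSeq start in GRCm38.p6, 5′ to 3′ on the gene's strand, with the motif in capitals; Btg2 lies on the minus strand at chr1:134079156-134079405 and Zfp36 on the minus strand at chr7:28379229-28379478.
Btg2: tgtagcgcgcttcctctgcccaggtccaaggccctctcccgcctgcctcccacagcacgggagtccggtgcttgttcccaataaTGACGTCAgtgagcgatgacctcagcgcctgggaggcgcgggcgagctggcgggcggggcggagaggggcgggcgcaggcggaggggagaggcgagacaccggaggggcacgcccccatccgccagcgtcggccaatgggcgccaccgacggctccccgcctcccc
Zfp36: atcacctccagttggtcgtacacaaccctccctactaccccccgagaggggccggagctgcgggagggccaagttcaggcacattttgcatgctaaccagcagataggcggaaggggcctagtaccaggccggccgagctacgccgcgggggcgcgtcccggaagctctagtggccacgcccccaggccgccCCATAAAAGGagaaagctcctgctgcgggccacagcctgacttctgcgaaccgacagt
The CRE of Btg2 begins 166 bases before the start and the CArG box of Zfp36 begins 58 bases before it. Both strands were searched. Of the 34 genes of the list that rose, 27 had a promoter in the RefSeq table, and 2 of the 27 held a CRE and 3 a CArG box in this window, while 1.56% and 1.48% of all 32536 promoters held them. A gene counted if any of its starts held the motif, while the background is over single promoters. Genes with several starts are thereby favoured, so these shares are not like for like. The matches describe the sequence and are not shown to be bound.

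Heat shock genes rose in 12 of 22 members tested and fell in none (median 1.66), with 16 rises and 3 falls without pool 3; the list gave 1, 11 and 19 calls without pool 1, 2 or 3 and 0, 0 and 0 without muscle library 1, 2 or 3. Hspa1a, Hspa1b, Dnajb1 and Hsph1 were highest in pool 2 and lowest in pool 3. Hspa1a, the inducible Hsp70, reached 591, 1330.5 and 41.4 CPM in the pools against 1.09, 0.74 and 1.44 CPM in muscle. Hspa1a rose by 9.22 ± 1.37 (SE) on the log2 scale, adjusted p = 0.0141 (3.78e-07 to 0.112). Its neighbour Hspa1b measured 709.6, 1380.04 and 57.6 against 2.02, 1.68 and 0.87 CPM, but 66.6% of the sampled 50-base windows of Hspa1a and 62.3% of those of Hspa1b also occur in another gene's transcripts, so the reads cannot be divided between them with certainty. Dnajb1, an Hsp40 co-chaperone, stood at 349, 964 and 289 against 6.3, 7.0 and 9.7 CPM. Dnajb1 rose by 6.12 ± 0.65 (SE) on the log2 scale, adjusted p = 0.00498 (2.29e-06 to 0.0655). Hsph1, an exchange factor for Hsp70, ran at 683, 1575 and 67.4 CPM in the pools and 37.3, 38 and 31.3 CPM in muscle. Hsph1 rose by 4.45 ± 1.02 (SE) on the log2 scale, adjusted p = 0.0391 (4.07e-06 to 0.19). In pool 3, Hsph1 and Dnaja1 were each less than 2 times the highest muscle value, whereas in pools 1 and 2 they were at least 5 times above it. The constitutive relatives moved less: Hspa8 measured 647, 729.95 and 825 against 302, 349 and 328 CPM and did not pass the test (log2 fold change 1.17 ± 0.34 (SE), adjusted p = 0.0754), nor did Hspa5, Hspa9 and Hspd1, the chaperones of endoplasmic reticulum and mitochondria. Small heat shock proteins Hspb1 and Hspb8 rose by 2.16 and 1.82 on the log2 scale.

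Metallothioneins and genes of the oxidative stress response rose in 8 of 20 members and fell in 1 (median 1.19; 11 and 3 without pool 3), with 4, 8 and 14 calls without pool 1, 2 or 3 and 0, 2 and 2 without muscle library 1, 2 or 3. Mt2, a small metal-binding protein, stood at 186, 104 and 75.6 CPM in the pools and 0.934, 0.841 and 1.04 CPM in muscle. Mt2 rose by 7.01 ± 0.51 (SE) on the log2 scale, adjusted p = 0.00249 (3.78e-07 to 0.0527). Mt1 measured 972, 441 and 1954 against 19.4, 28.8 and 39.3 CPM, log2 fold change 5.26 ± 0.70 (SE), adjusted p = 0.0105 (1.44e-05 to 0.102), with pool 3 highest where for Mt2 it was lowest. The exons of Mt2 overlap the annotated gene Gm45774 over 73.5% of their bases. Osgin1, an Nfe2l2 target linked to oxidative stress, reached 502, 263 and 394 against 6.77, 9.35 and 7.96 CPM, log2 fold change 5.59 ± 0.45 (SE), adjusted p = 0.00316 (1.45e-06 to 0.0527), and Srxn1, which restores peroxiredoxins, 739, 389.8 and 348 against 14.2, 17.4 and 17.8 CPM. Srxn1 rose by 4.9 ± 0.47 (SE) on the log2 scale, adjusted p = 0.00386 (2.04e-06 to 0.0583). Hmox1, the haem-degrading enzyme, rose by 3.28 and the regulator Nfe2l2 itself by 1.31 on the log2 scale. The antioxidant Gpx3 fell, at 39.8, 27.3 and 44.8 CPM against 156, 154 and 184 CPM. Gpx3 fell by 2.14 ± 0.34 (SE) on the log2 scale, adjusted p = 0.0159 (0.000117 to 0.116). Nqo1, Gclm, Cat and Sod2 did not pass the test.

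The promoters of Hspa1a, Mt2 and Osgin1 are shown beside these values since heat shock elements (HSE, GAANNTTC), metal response elements (MRE, TGCACNC or TGCGCNC) and AP-1 sites (TGACTCA or TGAGTCA) are the textbook elements of such genes. They are again the 250 bases before the RefSeq start in GRCm38.p6 on the gene's strand, with the named motifs in capitals on either strand. Hspa1a lies on the minus strand at chr17:34972157-34972406, Mt2 on the plus strand at chr8:94172368-94172617 and Osgin1 on the plus strand at chr8:119436897-119437146.
Hspa1a: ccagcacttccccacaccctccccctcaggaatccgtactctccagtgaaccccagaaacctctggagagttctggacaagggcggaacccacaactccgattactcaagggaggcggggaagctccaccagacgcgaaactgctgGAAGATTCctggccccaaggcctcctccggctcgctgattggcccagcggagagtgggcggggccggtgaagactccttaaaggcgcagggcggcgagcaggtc
Mt2: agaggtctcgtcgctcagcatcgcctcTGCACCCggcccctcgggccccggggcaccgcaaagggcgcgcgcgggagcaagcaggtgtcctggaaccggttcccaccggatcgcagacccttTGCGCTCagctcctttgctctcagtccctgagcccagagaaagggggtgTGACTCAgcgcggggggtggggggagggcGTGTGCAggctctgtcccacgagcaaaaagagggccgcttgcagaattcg
Osgin1: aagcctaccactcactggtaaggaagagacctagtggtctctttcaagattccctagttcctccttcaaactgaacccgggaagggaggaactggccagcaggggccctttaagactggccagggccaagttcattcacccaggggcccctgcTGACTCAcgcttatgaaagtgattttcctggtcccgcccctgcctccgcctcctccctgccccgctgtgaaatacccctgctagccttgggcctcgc
The HSE of Hspa1a begins 104 bases before the start, and this window is 98.8% identical to that of Hspa1b. In Mt2, MRE matches begin at 223, 128 and 50 bases before the start, the last on the other strand, and an AP-1 match begins at 79 bases; Osgin1 holds an AP-1 match at 97 bases. Among heat shock genes that rose, 5 of the 10 with a promoter in the table held an HSE, found in 6.72% of all promoters. Over all members of the list with a promoter, 7 of 17 held an HSE. Hspa1a and Hspa1b are among these 7 and count separately despite their near-identical windows. Hspd1 and Hspe1 count separately too, although their HSE is the same stretch of DNA between genes on opposite strands. Among metallothionein and oxidative stress genes that rose, 4 of 6 held an MRE and 3 of 6 an AP-1 match, found in 21.6% (MRE) and 4.45% (AP-1) of all promoters. Over all members of that list with a promoter, 6 of 18 held an MRE and 3 of 18 an AP-1 match. MRE matches were not particular to this list: 13 of 27 immediate early genes and 2 of 5 core clock genes that rose held one. Over all members with a promoter, 17 of 39 immediate early and 10 of 16 core clock genes did. Here too a gene counted if any of its starts held the motif, while the background is over single promoters, so these shares are not like for like. In the capitals shown no motif overlaps another.

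**Figure D2:**
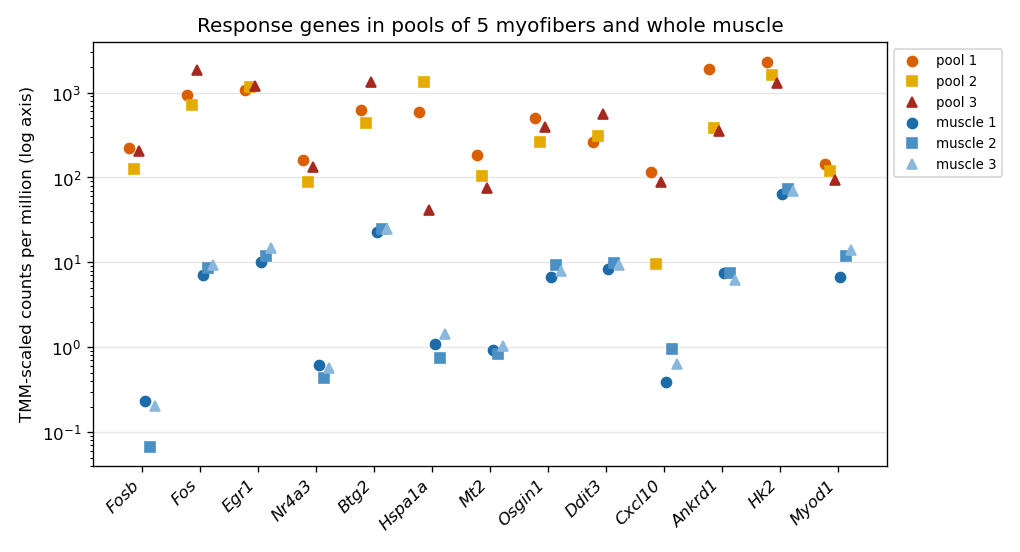
Level of 13 response and regulatory genes (TMM-scaled CPM, log axis) in each library; orange and red symbols are pools 1 to 3, blue symbols are muscle libraries 1 to 3, and values at 0 would sit at the lower edge. In each of these genes every pool lies above every muscle library, and for Hspa1a pool 3 (41.4 CPM) lies well below pools 1 and 2.

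The integrated stress response rose in 5 of 16 members tested with no falls (median 0.78; 9 rises and 3 falls without pool 3), with 3, 5 and 12 calls without pool 1, 2 or 3 and 0, 1 and 1 without muscle library 1, 2 or 3. Ddit3, which encodes the factor Chop, stood at 264, 309 and 558 CPM in the pools and 8.32, 9.83 and 9.23 CPM in muscle. Ddit3 rose by 5.37 ± 0.47 (SE) on the log2 scale, adjusted p = 0.00382 (3.78e-07 to 0.0527). Atf4, its upstream factor, rose less, from 87.2, 85.4 and 99.9 CPM in muscle to 308, 239.6 and 300.1 CPM in the pools. Atf4 rose by 1.64 ± 0.32 (SE) on the log2 scale, adjusted p = 0.0262 (0.000251 to 0.214). Ppp1r15a, the phosphatase subunit that reverses the response, and Chac1, a glutathione-degrading target, rose by 3.39 and 3.91. The targets Asns, Trib3 and Ddit4 did not pass the test, at -0.00, 0.89 and 0.77 on the log2 scale.

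Cytokine, NF-kB and Stat feedback genes rose in 14 of 27 members tested, and none fell (median 1.99). Without pool 3, 25 rose; the list gave 4, 13 and 25 calls without pool 1, 2 or 3 and 0, 1 and 2 without muscle library 1, 2 or 3. The chemokine Cxcl10 varied 10-fold and more between pools, at 115, 9.46 and 87.3 CPM, against 0.389, 0.942 and 0.636 CPM in muscle. Cxcl10 rose by 6.69 ± 0.99 (SE) on the log2 scale, adjusted p = 0.014 (0.000154 to 0.112). Cxcl1, a neutrophil-attracting chemokine, measured 36.6, 57.7 and 18 against 0.856, 0.673 and 0.535 CPM. Cxcl1 rose by 5.78 ± 0.55 (SE) on the log2 scale, adjusted p = 0.00386 (4.86e-07 to 0.0527). Il6, a cytokine that muscle can secrete, stood at 20, 6.41 and 0.767 CPM in the pools and near 0 in muscle at 0.0778, 0.0336 and 0.134 CPM. Il6 rose by 6.66 ± 1.3 (SE) on the log2 scale, adjusted p = 0.0265 (1.79e-05 to 0.146). Cxcl2 had no read in any muscle library and 3.46, 7.38 and 0.944 CPM in the pools, at least 71-fold higher with 3 reads assumed over the muscle group. Socs3, the feedback inhibitor of Stat3, was steadier, at 61, 37.4 and 47 CPM in the pools and 4.05, 3.26 and 4.55 CPM in muscle, log2 fold change 3.61 ± 0.34 (SE), adjusted p = 0.00386 (5.84e-06 to 0.057), and Stat3 itself rose by 2.12. Macrophages are a usual source of these proteins, and the source of the transcripts was not tested here. Summed macrophage markers stood at 12%, 12.7% and 6.57% of the muscle mean in pools 1 to 3.

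Genes of mechanical stress rose in 6 of 13 members (median 1.76; 9 rises and 2 falls without pool 3), with 3, 6 and 11 calls without pool 1, 2 or 3 and 0, 0 and 0 without muscle library 1, 2 or 3. Ankrd1, a titin-bound ankyrin repeat protein, stood at 1874, 379.6 and 348 CPM in the pools and 7.55, 7.54 and 6.16 CPM in muscle, log2 fold change 6.94 ± 0.88 (SE), adjusted p = 0.00916 (1.19e-05 to 0.0913), and pool 1 held by far the most. Rrad, a small GTPase that restrains calcium channels, was also highest in pool 1, with 531, 234 and 103 CPM in the pools against 4.59, 4.85 and 6.16 CPM in muscle. Rrad rose by 5.8 ± 0.70 (SE) on the log2 scale, adjusted p = 0.00748 (1.57e-06 to 0.0864). Xirp1 and Flnc, proteins of the Z-disc and of its repair, rose by 3.81 and 3.82. The relative Ankrd2 did not pass the test (1.76 ± 0.63 SE) and Ankrd23 had a negative value (-1.75) that did not pass either. Of the sampled windows of Ankrd23, 80.2% also occur in other transcripts, so its level is uncertain.

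Core clock genes rose in 7 of 18 members, and none fell (median 0.81; 10 rises and 4 falls without pool 3), with 3, 7 and 14 calls without pool 1, 2 or 3 and 0, 2 and 2 without muscle library 1, 2 or 3. Those that rose were mostly repressors of the loop. Per1 measured 95.7, 62.1 and 59.2 CPM in the pools and 1.87, 1.72 and 3.91 CPM in muscle, log2 fold change 4.84 ± 0.48 (SE), adjusted p = 0.00387 (4.16e-06 to 0.0562), and Per2 33.7, 23.7 and 9.38 against 0.311, 0.202 and 0.335 CPM. Per2 rose by 6.28 ± 0.63 (SE) on the log2 scale, adjusted p = 0.00387 (5.34e-07 to 0.0527). Ciart, another repressor, rose by 5.09, Cry2 by 1.77 and Per3 by 1.64. The activators Arntl, Npas2 and Clock did not pass the test (-1.11, -2.17 and -0.30), nor did the output factor Dbp (-0.92). The labels give no time of day for any sample.

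Atrophy and Foxo genes moved little as a list: 3 of 19 rose and 1 fell (median 0.17; -0.40 without pool 3, with 8 rises and 6 falls). The ubiquitin ligase Trim63 rose just within the threshold, at 647, 551 and 359 CPM against 184, 193 and 183 CPM, log2 fold change 1.48 ± 0.37 (SE), adjusted p = 0.0495 (0.000216 to 0.264), together with Foxo3 (2.1) and the cell cycle inhibitor Cdkn1a (2.38), while the glucocorticoid-induced Klf15 fell (-1.3). Polyamine and ribosome biogenesis genes split, with 4 rises and 2 falls among 20 (8 and 5 without pool 3). Sat1, which starts polyamine breakdown, rose from 52.3, 50 and 45.7 CPM in muscle to 483, 244 and 482 CPM in the pools. Sat1 rose by 3.03 ± 0.41 (SE) on the log2 scale, adjusted p = 0.0109 (4.51e-05 to 0.113). Amd1, which makes the donor for spermidine, fell from 209, 205 and 160.4 CPM to 9.61, 6.41 and 38.5 CPM, log2 fold change -3.39 ± 0.71 (SE), adjusted p = 0.0306 (4.41e-06 to 0.145); 78.9% of its sampled windows are shared with another gene, so its level is uncertain. Smox, the spermine oxidase, fell by 2.12 on the log2 scale. Without each muscle library, none of the members of these 2 lists were called.

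The list of myogenic regulators gave 4 rises and 1 fall among 14 members (median 0.23; 6 and 4 without pool 3), with 1, 5 and 10 calls without pool 1, 2 or 3 and 0, 0 and 0 without muscle library 1, 2 or 3. The falls lie near the share over all genes (4.22%, and 23.1% without pool 3). Myod1, the fast-fiber myogenic factor, stood at 145, 119.8 and 93 CPM in the pools and 6.77, 12 and 14.1 CPM in muscle. Myod1 rose by 3.44 ± 0.41 (SE) on the log2 scale, adjusted p = 0.00717 (9.37e-06 to 0.0792). Myog, which acts later in differentiation, fell from 10.3, 10.4 and 8.06 CPM in muscle to 1.18, 3.05 and 2.89 CPM in the pools. Myog fell by 2.02 ± 0.45 (SE) on the log2 scale, adjusted p = 0.0372 (0.00137 to 0.184). Myf6, the factor of mature fibers, did not pass the test (61.1, 14.9 and 70.5 against 103, 98.7 and 93.4 CPM). Mef2c, Tead1 and the Tead partner Vgll2 rose by 1.54, 2.21 and 1.41. For satellite cells, the stem cells that also use Myod1, the marker list gave 1 rise (Sdc4, 2.07) and 1 fall (Chodl, -2.1) among 13. Without pool 3 it gave 3 rises and 3 falls. These counts lie near the shares over all genes, 4.63% and 4.22% with all pools and 25.2% and 23.1% without pool 3. The summed level of the markers was 88.2%, 72.6% and 102% of the muscle mean in pools 1 to 3. Pax7, the defining factor of satellite cells, measured 1.69, 5.61 and 0.944 CPM in the pools and 2.18, 2.02 and 1.94 CPM in muscle.

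**Figure D3:**
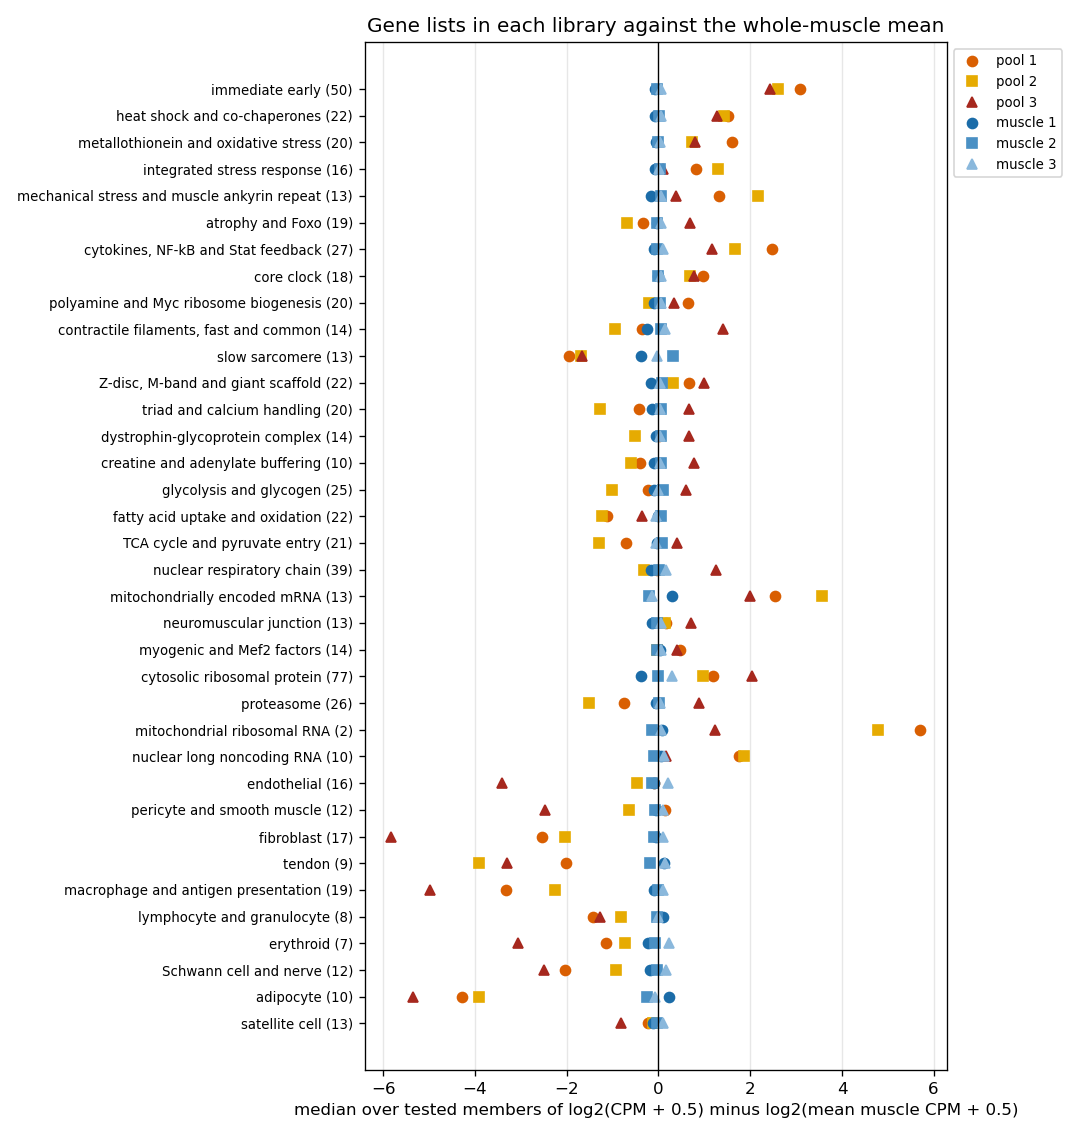
Median over the tested members of each list (number in brackets) of log2(CPM + 0.5) minus log2 of the mean muscle CPM + 0.5 (x axis), for each of the 6 libraries. Muscle libraries sit close to 0; the 3 pools lie to the right for immediate early genes and ribosomal proteins and to the left for fibroblast, macrophage and adipocyte markers, and pool 3 leaves the other pools in contractile, metabolic and proteasome lists.

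Transcripts of the mitochondrial genome made up more of the reads in the pools. The 13 mRNAs took 10.6, 20.5 and 10.6% of reads in the pools and 6.88, 4.64 and 4.51% in muscle (exact permutation p = 0.1), and 7 of 13 rose, with a median of 3.01; without pool 3, 12 rose. The list gave 0, 8 and 12 calls without pool 1, 2 or 3 and 0, 0 and 0 without muscle library 1, 2 or 3. mt-Nd1, a subunit of complex I, stood at 47993, 76964 and 38031 CPM in the pools and 7889, 5397 and 5479.8 CPM in muscle. mt-Nd1 rose by 3.12 ± 0.70 (SE) on the log2 scale, adjusted p = 0.0372 (0.000219 to 0.257). mt-Nd6, the subunit gene on the opposite strand of the circle, measured 6912, 9088 and 2638 against 540.3, 406 and 467 CPM. mt-Nd6 rose by 3.72 ± 0.62 (SE) on the log2 scale, adjusted p = 0.0186 (1.03e-05 to 0.151). mt-Co1 and mt-Cytb did not pass the test, at 1.78 and 2.28 on the log2 scale. mt-Co2, mt-Co3 and mt-Atp6 rose too, but all of their sampled windows also occur in other annotated transcripts. The 12S ribosomal RNA mt-Rnr1 measured 157296, 56379.5 and 5502 CPM in the pools and 2185, 1756 and 1924 CPM in muscle, log2 fold change 5.22 ± 1.27 (SE), adjusted p = 0.0465 (4.36e-05 to 0.233), whereas the 16S mt-Rnr2 did not pass (log2 fold change 4.39 ± 1.28 (SE), adjusted p = 0.0743). Of the transfer RNA genes, mt-Tp, mt-Tq and mt-Te were among the 12 largest rises outside the lists, at 6.15, 5.6 and 5.28. The list of nuclear long noncoding RNAs gave 3 rises in 10 (4.63% of all genes) and 7 without pool 3, with 1, 3 and 7 calls without pool 1, 2 or 3 and 0, 0 and 0 without muscle library 1, 2 or 3. In 5 of the 10, pools and muscle libraries overlapped. Malat1 stood at 8245, 7820.03 and 2174 CPM in the pools and 448, 391 and 489.9 CPM in muscle, log2 fold change 3.78 ± 0.66 (SE), adjusted p = 0.0206 (7.06e-06 to 0.158), while Neat1 at 1927, 1674 and 279 CPM lay below the muscle range in pool 3 alone (322, 302 and 314 CPM in muscle).

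Of the nuclear-encoded respiratory chain, 3 of 39 members rose and none fell (median 0.37), but without pool 3 there were 7 rises and 13 falls (median -0.11). These shares lie near those over all genes, 4.63% for rises with all pools, and 25.2% for rises and 23.1% for falls without pool 3. The genes that rose were Cox8b (2774, 2024 and 3305 against 315, 549.8 and 630.03 CPM), Cox7a1 (1.83) and Atp5o (2.01), subunits of complex IV and of ATP synthase. Atp5o shares 42.5% of its sampled windows with other transcripts, so its level is uncertain. The tricarboxylic acid cycle had no call in 21 members with edgeR on all libraries, of which 3 had an unadjusted p under 0.05, and DESeq2 called 0 higher and 2 lower, voom with quality weights 1 and 15. It had 14 falls without pool 3. In fatty acid uptake and oxidation, 5 of 22 fell and 1 rose (median -0.91; 16 falls and 2 rises without pool 3). Ucp3, the uncoupling protein of muscle, measured 24.6, 21.2 and 27.9 CPM in the pools and 99, 108 and 96 CPM in muscle. Ucp3 fell by 2.04 ± 0.29 (SE) on the log2 scale, adjusted p = 0.0131 (7.98e-05 to 0.108). Acads, the short-chain acyl-CoA dehydrogenase, measured 11.9, 12.2 and 8.38 against 45.5, 48.3 and 48.5 CPM. Acads fell by 2.14 ± 0.29 (SE) on the log2 scale, adjusted p = 0.0115 (8.45e-05 to 0.0901). Pdk4, the kinase that holds pyruvate back from oxidation, fell by 1.45. The exception Etfb (1.82) overlaps the annotated gene Gm45233, and Acadvl, which fell (-3.61), overlaps Dvl2. Without any 1 muscle library no member of these 3 lists was called.

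Glycolysis gave a single call in 25 members, a rise, which is near the share over all genes (4.63% higher). Hk2, the hexokinase that commits glucose to use in muscle, stood at 2316, 1598 and 1304 CPM in the pools and 63.1, 73.2 and 68.6 CPM in muscle. Hk2 rose by 4.67 ± 0.46 (SE) on the log2 scale, adjusted p = 0.00387 (1.8e-06 to 0.0693). The abundant enzymes Aldoa, Pgam2 and Eno3 did not pass the test, and in each of them pool 3 was 3 to 10 times above pools 1 and 2. Aldoa ran at 13000.3, 6759 and 53279 CPM in the pools and 12550.2, 14178 and 14297 CPM in muscle. Without pool 3 the list gave 3 rises and 7 falls, beside 25.2% and 23.1% of all genes. In creatine and adenylate buffering, the creatine transporter Slc6a8 rose (119, 76.7 and 75 against 30.3, 29.9 and 30.5 CPM, log2 fold change 1.58 ± 0.32 (SE), adjusted p = 0.0282) and Gatm, which makes the creatine precursor, fell (0.759, 0.802 and 3.36 against 27.2, 22.6 and 30 CPM, log2 fold change -3.94 ± 0.61 (SE), adjusted p = 0.0154), the only calls in 10 members. Without pool 3 that list gave 1 rise and 4 falls. Ckm, muscle creatine kinase, measured 6659.9, 4705 and 40807 CPM in the pools and 6458, 8085 and 8192 CPM in muscle and did not pass.

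Ribosomal protein genes rose in 36 of 77 members tested and fell in none, with a median of 1.57; 63 had all pools above all muscle libraries (14.8% of all genes). Without pool 3, 62 rose and 1 fell, and the list gave 3, 44 and 63 calls without pool 1, 2 or 3 and 0, 0 and 0 without muscle library 1, 2 or 3. Rps28, of the small subunit, stood at 357, 259 and 277 CPM in the pools and 30.2, 43.2 and 48.3 CPM in muscle, log2 fold change 2.87 ± 0.37 (SE), adjusted p = 0.00916 (2.01e-05 to 0.105), and Rpl36, of the large subunit, at 315, 333 and 402 against 34, 59.1 and 84.1 CPM. Rpl36 rose by 2.57 ± 0.43 (SE) on the log2 scale, adjusted p = 0.0186 (0.000147 to 0.151). The summed level was 246%, 223% and 426% of the muscle mean. Sampled windows of 73 of the 77 genes are shared with other transcripts at over 10%, a median of 41.6%, so single members are uncertain. The proteasome, the other large housekeeping complex listed, had no call in 26 members with edgeR, of which 0 had an unadjusted p under 0.05, and DESeq2 called 0 higher and 0 lower, voom with quality weights 0 and 23. There were 23 falls and no rise without pool 3 (median -0.99). Its summed level was 50.9%, 35% and 199% of the muscle mean in pools 1 to 3, so that pool 3 lay on the other side of muscle from pools 1 and 2.

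Calls in the contractile apparatus are to be read beside 4.63% rises and 4.22% falls over all genes. For a list as short as the fast filaments, no call lies near these shares. None of the 14 fast and common filament genes was called by edgeR (median 0.31): 2 had an unadjusted p under 0.05, and DESeq2 called 0 higher and 0 lower, voom with quality weights 0 and 6. Without pool 3, 5 fell. Acta1, skeletal actin, measured 30413, 25595 and 85921 CPM in the pools and 26559, 31418 and 34549 CPM in muscle, and Myh4 12580.5, 5248 and 13566 against 7861, 11894 and 10397 CPM. Pool 3 exceeded and pool 2 fell short of muscle for most of these genes. Slow-fiber genes fell in 3 of 13 members (median -1.82; 8 falls and 2 rises without pool 3), with 1, 4 and 10 calls without pool 1, 2 or 3 and 0, 1 and 1 without muscle library 1, 2 or 3. Tnni1, slow troponin I, stood at 0.675, 2.08 and 1.95 CPM in the pools and 82.5, 124 and 93.4 CPM in muscle. Tnni1 fell by 6.01 ± 0.53 (SE) on the log2 scale, adjusted p = 0.00386 (3.41e-06 to 0.0527). Tnnc1, the troponin C of slow and cardiac muscle, measured 0.0843, 0 and 1.77 against 65.7, 122 and 91 CPM, log2 fold change -6.99 ± 1.11 (SE), adjusted p = 0.016 (1.12e-06 to 0.0977), and Myh7, slow myosin, 2.95, 2.57 and 0 against 42.6, 117 and 60.2 CPM. Myh7 fell by 5.37 ± 1.19 (SE) on the log2 scale, adjusted p = 0.0361 (4.51e-05 to 0.149). All 3 were near 0 in every pool. Other members had higher means in the pools without passing the test: Mybpc1, slow myosin-binding protein C, measured 1313, 712 and 2588 against 509, 629 and 558 CPM (log2 fold change 1.44 ± 0.54 (SE), adjusted p = 0.136), and Csrp3, muscle LIM protein, 193, 419 and 101 against 78, 104 and 95.3 CPM (log2 fold change 1.36 ± 0.53 (SE), adjusted p = 0.154). The summed level of the list was 97.3%, 81.1% and 171% of the muscle mean. Mybpc1 was a large part of it, at 1313, 712 and 2588 of 1723, 1437 and 3036 CPM in the pools. In muscle it was 509, 629 and 558 of 1424, 2187 and 1703 CPM. Without Mybpc1 the sum of every pool lay below that of every muscle library. The median member lay at -1.96, -1.70 and -1.66 from the muscle mean on the log2 scale in pools 1 to 3.

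Set side by side per kilobase of exon, Myh4 made up 95.7, 85.3 and 95.8% of the 4 adult myosin heavy chains in pools 1 to 3 and 90.2, 90.7 and 90.4% in muscle, a mean difference of 1.8 percentage points (exact permutation p = 0.6). Myh1, of fast IIX fibers, took 3.87, 13.4 and 2.14% and 6.79, 6.14 and 6.81%, with pool 2 above and pools 1 and 3 below muscle (p = 1, exact). Myh2, of oxidative IIA fibers, took 0.438, 1.21 and 2.1% in the pools and 2.64, 2.54 and 2.4% in muscle (exact permutation p = 0.1), and Myh7 took 0.0157, 0.0291 and 0% and 0.341, 0.623 and 0.366% (exact permutation p = 0.1). Every pool lay below every muscle library for Myh2 and Myh7. These tests belong to a family of 11 single values, over which the adjusted p of the smallest is 0.275. The spread between pools was far wider than between muscles for Myh1: 6.09 against 0.385 percentage points (SD, n = 3 each). Myh1 and Myh2 share 30.9% and 26.5% of sampled windows with other genes.

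**Figure D4:**
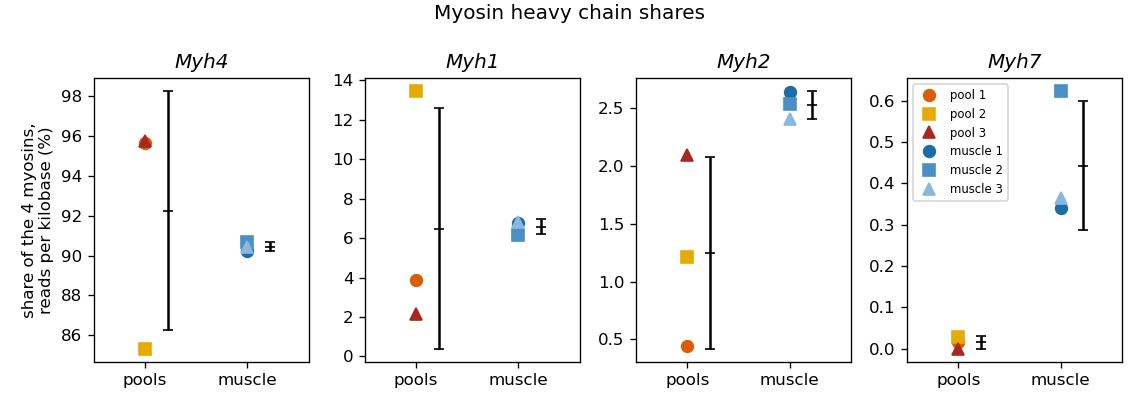
Share of each of 4 myosin heavy chains in their summed reads per kilobase (%, y axis, one panel per gene with its own scale), as points for the 6 libraries and as mean with SD bars (n = 3) for pools and muscle. Pool 2 has the lowest Myh4 (85.3%) and the highest Myh1 (13.4%) of all libraries, and Myh7 is at or near 0 in the pools.

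Scaffold genes of Z-disc and M-band rose in 5 of 22 members (median 0.66; 11 rises and 3 falls without pool 3), with 1, 7 and 14 calls without pool 1, 2 or 3 and 0, 0 and 0 without muscle library 1, 2 or 3. Flnc, filamin C, stood at 1484, 733 and 261 CPM in the pools and 48.7, 66.4 and 59.8 CPM in muscle. Flnc rose by 3.82 ± 0.67 (SE) on the log2 scale, adjusted p = 0.0208 (9.86e-06 to 0.144). Cryab, a small heat shock protein that protects the Z-disc, rose by 1.89. Ttn, titin, was higher in every pool, at 23831, 8861 and 9579 CPM against 4456, 4935 and 4849.96 CPM, but did not pass the test (log2 fold change 1.57 ± 0.61 (SE), adjusted p = 0.151). Several of these transcripts are very long, and the bin of longest genes was shifted upward as given above. In triad and calcium handling, Ryr1, the calcium release channel, rose from 181, 205 and 233 CPM in muscle to 1707, 1012 and 777 CPM in the pools. Ryr1 rose by 2.5 ± 0.45 (SE) on the log2 scale, adjusted p = 0.0219 (5.81e-05 to 0.171). Stac3, an essential partner of the voltage sensor, fell from 99.9, 116 and 116 CPM to 9.44, 6.25 and 17.5 CPM, log2 fold change -3.31 ± 0.45 (SE), adjusted p = 0.0109 (7.15e-06 to 0.0832), and the phosphatase gene Mtm1 fell by 1.67. The other 17 of 20 members did not pass, Atp2a1 and Pvalb among them, and without pool 3 the list gave 3 rises and 9 falls. The dystrophin complex had no call in 14 members with edgeR, of which 2 had an unadjusted p under 0.05, and DESeq2 called 2 higher and 0 lower, voom with quality weights 2 and 4. The neuromuscular junction had none in 13, of which 4 had an unadjusted p under 0.05, and DESeq2 called 1 higher and 0 lower, voom with quality weights 3 and 3. Without pool 3 each of these lists had 3 rises and 4 falls, near the 25.2% and 23.1% of all genes. Chrna1 and Chrnb1, subunits of the acetylcholine receptor, measured 15.2, 9.78 and 58.5 and 88.4, 64.6 and 60.4 CPM in pools 1 to 3 against 19.7, 20.7 and 27.2 and 31.1, 37 and 36.4 CPM in muscle.

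Summed markers of most other cell types were lower in every pool than in every muscle library, to very different degrees. Those of pericytes and satellite cells were not. The endothelial sum was lower in every pool only with Fabp4 included, which fat also expresses. In bulk samples, fewer cells of a type and less RNA per cell cannot be told apart. Of the adipocyte markers 8 of 10 fell (median -5.55), and the same number without pool 3, with 4, 8 and 8 calls without pool 1, 2 or 3 and 0, 3 and 3 without muscle library 1, 2 or 3. Cfd, adipsin, measured 0.675, 0.481 and 0 CPM in the pools and 868, 657 and 833 CPM in muscle. Cfd fell by 11.1 ± 1.11 (SE) on the log2 scale, adjusted p = 0.00387 (3.78e-07 to 0.0527). Adipoq, adiponectin, measured 0.422, 0 and 0 against 99.97, 67.9 and 77.1 CPM, log2 fold change -9.06 ± 0.95 (SE), adjusted p = 0.00464 (1.98e-06 to 0.0527), with no read in pools 2 and 3. Their summed level was 550.3, 354 and 517 CPM in the pools and 3535, 3343 and 3388 CPM in muscle, most of it Car3, a carbonic anhydrase that myofibers also express; without Car3 it was 104, 83.2 and 81 against 1398, 1019.7 and 1238 CPM.

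Schwann cell and nerve markers fell in 4 of 12 (median -2.03; 6 without pool 3), with 2, 5 and 6 calls without pool 1, 2 or 3 and 2, 2 and 2 without muscle library 1, 2 or 3. Mbp, myelin basic protein, stood at 0.759, 1.12 and 1.18 CPM in the pools and 44.7, 53.3 and 60.1 CPM in muscle. Mbp fell by 5.68 ± 0.37 (SE) on the log2 scale, adjusted p = 0.00156 (1.09e-06 to 0.0303). The summed level of the 12 markers was 22, 41.1 and 19.8 CPM in the pools and 252, 309 and 333 CPM in muscle. Fibroblast markers fell in 7 of 17 (median -3.03), and 16 of 17 had all pools below all muscle libraries (22.3% of all genes); without pool 3, 16 fell (23.1% of all genes) and 1 rose, and the list gave 0, 4 and 17 calls without pool 1, 2 or 3 and 0, 0 and 0 without muscle library 1, 2 or 3. Col3a1, a fibrillar collagen, measured 59.7, 139 and 18.8 against 1346, 1203 and 1288 CPM, log2 fold change -4.15 ± 0.75 (SE), adjusted p = 0.0221 (5.6e-05 to 0.114), and Pi16, of adventitial fibroblasts, 0.506, 1.44 and 0.059 against 32.1, 35.4 and 41.7 CPM. Pi16 fell by 6.01 ± 0.83 (SE) on the log2 scale, adjusted p = 0.0116 (4.22e-06 to 0.0758). The summed fibroblast level was 596, 852 and 85.3 CPM in the pools and 4837, 4546 and 5317 CPM in muscle, so pool 3 held about 10 times less than pool 2. Tendon markers fell in 5 of 9 (6 without pool 3), with 4, 4 and 6 calls without pool 1, 2 or 3 and 0, 1 and 0 without muscle library 1, 2 or 3; Tnmd, tenomodulin, had no read in pools 2 and 3 and 0.759 CPM in pool 1 against 20.9, 13.3 and 22 CPM in muscle.

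Markers of macrophages and of antigen presentation were lower: 5 of 19 fell and 1 rose (median -3.43; 15 falls and 1 rise without pool 3), with 2, 8 and 16 calls without pool 1, 2 or 3 and 0, 0 and 0 without muscle library 1, 2 or 3. Lyz2, lysozyme, stood at 0.675, 4.65 and 4.25 CPM in the pools and 228, 222 and 223 CPM in muscle, log2 fold change -6.15 ± 0.74 (SE), adjusted p = 0.00748 (1.68e-05 to 0.0583); 15.1% of its windows are shared with other transcripts. C1qa, of the complement C1 complex, measured 0.843, 0.321 and 0 against 12.4, 18.1 and 22.1 CPM. C1qa fell by 5.54 ± 0.93 (SE) on the log2 scale, adjusted p = 0.0186 (2.75e-05 to 0.11). The marker that rose was Cd68, a lysosomal protein, at 27.3, 12.2 and 23.4 CPM against 5.76, 6.02 and 7.16 CPM. Cd68 rose by 1.73 ± 0.37 (SE) on the log2 scale, adjusted p = 0.0331 (0.00131 to 0.205). Of the 19 markers 8 had no read in pool 3, 1 in pool 1 and none in pool 2, and their summed level was 82.5, 87.2 and 45.3 CPM in the pools and 652, 668 and 747 CPM in muscle. Of 13 lymphocyte and granulocyte markers 8 could be tested and 1 fell, the mast cell chymase Cma1 (-5.31), with summed levels of 3.37, 12.7 and 4.96 against 23.1, 18.8 and 20.5 CPM. Without pool 3, 3 of 9 fell. Erythroid markers fell in 2 of 7 (3 without pool 3). Among them, Alas2, the haem-synthesis enzyme of red cells, measured 1.43, 0.641 and 0.944 against 15, 16 and 17.3 CPM, log2 fold change -3.96 ± 0.40 (SE), adjusted p = 0.00388 (2.79e-05 to 0.0527), while the globins, which share most of their windows with each other, did not pass.

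Vessel markers gave calls near the shares over all genes (4.63% higher and 4.22% lower). No endothelial marker of 16 was called by edgeR (median -0.62): 1 had an unadjusted p under 0.05, and DESeq2 called 1 higher and 1 lower, voom with quality weights 1 and 3. Without pool 3 there were 2 rises and 3 falls with a median of -0.09. The summed level was 964, 774 and 210.1 CPM in the pools and 1428, 1261 and 1573 CPM in muscle, or 67.8%, 54.5% and 14.8% of the muscle mean. Pecam1, which joins endothelial cells, measured 43, 31.3 and 2.3 CPM in the pools and 39.3, 38.5 and 41.9 CPM in muscle, so that pool 1 lay above muscle, pool 2 below it and pool 3 near 0. Flt1, a receptor of vascular endothelial growth factor, reached 95.1, 88.2 and 5.02 CPM in the pools against 14.2, 14.3 and 18.9 CPM in muscle and did not pass the test. Fabp4, a fatty acid carrier of endothelium and fat, was lower in every pool, at 226, 142 and 44.5 against 697, 572 and 728 CPM (log2 fold change -2.27 ± 0.60 (SE), adjusted p = 0.0559). Fabp4 made up a large part of the summed endothelial level, and without it the sum of pool 1 did not lie below every muscle library. Of the 16 endothelial markers, 5 had every pool below every muscle library (22.3% of all genes), and in 11 the groups overlapped. Pericyte and smooth muscle markers gave 1 fall in 12, smooth muscle actin Acta2 (6.32, 3.05 and 10.3 against 62.9, 62.9 and 74.6 CPM, log2 fold change -3.33 ± 0.47 (SE), adjusted p = 0.0124), with summed levels of 517, 352 and 262 CPM in the pools and 492, 462 and 514 CPM in muscle. Without pool 3 these markers gave 1 rise and 3 falls. The pool lowest for these markers, pool 3, is the one closest to muscle in mitochondrial ribosomal RNA. Immediate early genes were high in all 3 pools at 7670.3, 6217 and 10947 summed CPM, pool 3 included.

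**Figure D5:**
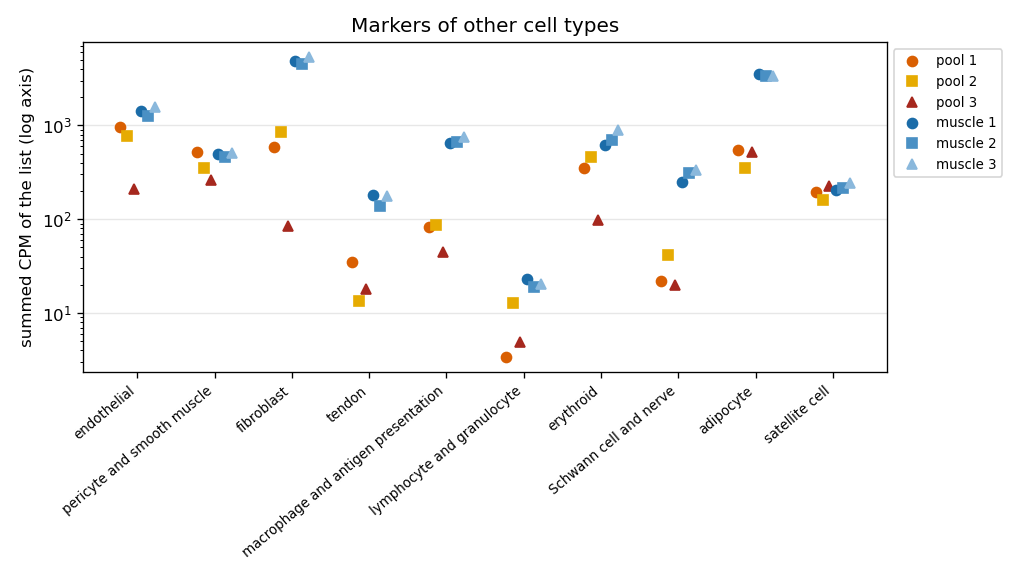
Summed level of each list of markers of other cell types (CPM, log axis) in the 6 libraries; orange and red symbols are pools 1 to 3, blue symbols are muscle. All pools lie below all muscle libraries for fibroblast, tendon, macrophage, lymphocyte, erythroid, Schwann cell, adipocyte and endothelial markers, while for pericyte and smooth muscle markers pool 1 (517 CPM) lies above them. Much of the endothelial sum is Fabp4, which fat also expresses, and without Fabp4 pool 1 does not lie below all muscle libraries.

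Outside the lists, the 12 largest rises among genes at a mean of 10 CPM or more, with no overlap between groups, included the 3 mitochondrial transfer RNAs above and Eid3, Lonrf3, Midn, Kdm6b, Irs2, Otud1, Sbno2 and Apold1. Eid3 rose most but unevenly, at 108, 11.4 and 7.73 CPM in the pools and 0.233, 0.0336 and 0 CPM in muscle. Eid3 rose by 9.3 ± 1.6 (SE) on the log2 scale, adjusted p = 0.02 (5.57e-05 to 0.128). Irs2, the insulin receptor substrate, stood at 416, 199 and 431 CPM in the pools and 8.4, 9.42 and 10.3 CPM in muscle, log2 fold change 5.22 ± 0.47 (SE), adjusted p = 0.00386 (2.57e-06 to 0.055), and the deubiquitinase Otud1 at 347, 268 and 633 against 12.8, 10.8 and 10.6 CPM, log2 fold change 5.19 ± 0.49 (SE), adjusted p = 0.00386 (8.28e-07 to 0.057); pool 3 was the highest pool in both. Kdm6b, a histone H3 lysine demethylase, and Midn, midnolin, rose by 5.73 and 6.2, with pool 1 highest and pool 3 lowest in both.

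The 12 largest falls outside the lists were Retnla, Pck1, Hp, Cyp2e1, Cdo1, Mfap4, Ucp1, Ifi27l2a, F13a1, Cd248, Nnat and Ccl6. Retnla, a secreted protein of alternatively activated macrophages and fat, had 1 read in the 3 pools together and 51.1, 55.8 and 80.6 CPM in muscle, log2 fold change -10.77 ± 0.71 (SE), adjusted p = 0.00156 (9.29e-07 to 0.0272), a ratio of pooled reads of 2284-fold with a 95% counting interval of 409.7 to 90229.9. Pck1, an enzyme of gluconeogenesis and of glycerol synthesis in fat, had 0.0843, 0.321 and 0 CPM in the pools and 58, 40.1 and 52.6 CPM in muscle, log2 fold change -8.98 ± 0.77 (SE), adjusted p = 0.00382 (1.11e-06 to 0.0527), with 3 reads in the pools and a ratio of pooled reads of 566-fold (193 to 2745). Cyp2e1, a cytochrome P450, measured 0.253, 0.16 and 0.295 against 46.1, 37.2 and 41.9 CPM, log2 fold change -7.34 ± 0.39 (SE), adjusted p = 0.00156, and Cdo1, cysteine dioxygenase, 0.0843, 0.16 and 0.236 against 32.4, 16.2 and 21.6 CPM. Cdo1 fell by 7.07 ± 0.54 (SE) on the log2 scale, adjusted p = 0.00312. Ucp1, the uncoupling protein of brown fat, was uneven within muscle, at 78.1, 8.68 and 9.74 CPM, with 0.0843, 1.28 and 0 CPM in the pools, log2 fold change -6.61 ± 1.53 (SE), adjusted p = 0.04 (0.00404 to 0.179); muscle 1 held at least 8 times the level of the other muscle libraries. F13a1 and Ccl6, expressed by macrophages, and Cd248 and Mfap4, of stromal cells, fell by 5.43, 5.18, 5.25 and 6.68 on the log2 scale.

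The pools differed from each other far more than the muscles did. Over 6318 genes at a mean of 10 CPM or more, the median SD of log2 CPM (offset 0.5) was 0.635 among pools and 0.155 among muscle libraries, and 0.278 between pools 1 and 2 alone. The 8 protein-coding genes with the largest spread among pools, outside the lists, were Timm23, Actc1, Mpc1, Cmbl, H2-Q6, Apoo, Apold1 and Ppp1ca. Actc1, cardiac actin, also expressed in skeletal fibers, ran at 1894, 366 and 17683 CPM in pools 1 to 3 and 6999, 7807 and 7021 CPM in muscle. Mpc1, of the mitochondrial pyruvate carrier, ran at 16.6, 8.18 and 333 CPM in the pools and 157, 151 and 176 CPM in muscle, and Timm23, of the inner membrane translocase, at 18.6, 6.74 and 342 against 191, 192 and 181 CPM. In 6 of the 8, pools 1 and 2 lay below and pool 3 above muscle; H2-Q6 and Apold1 were higher in pools 1 and 2 than in pool 3, at 168, 171 and 6.79 CPM and 193, 135 and 6.96 CPM in the pools. Timm23, Apoo, Mpc1 and H2-Q6 share 76.5%, 53.3%, 41.6% and 36.0% of their sampled windows with other transcripts, so their split between genes is uncertain. By raw reads the 6 leading genes took 56.2%, 54.2% and 26.6% of pools 1 to 3 and 15.9%, 16% and 16.9% of muscle. In pools 1 and 2 the leading gene was mt-Rnr2, with 29.4% and 30% of reads, followed by CT010467.1, annotated as ribosomal RNA on chromosome 17, with 10.9% and 6.24%. In pool 3 and in muscle, Acta1 and other sarcomere genes such as Myl1 and Tnnt3 led.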

How the data were processed

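RNA was measured in 12 libraries, of which the 3 pools of 5 myofibers and the 3 whole muscles were used. The authors deposited unnormalized counts, whole numbers of reads for each Ensembl gene, made with HISAT2, SAMtools and featureCounts on GRCm38 (mm10), per the submitters' processing notes; versions, strand and multi-mapping settings are not given in the sources used here. Of 55573 identifiers, 55480 matched GENCODE vM21. Groups came from the labels, which name no batch. Genes passing filterByExpr were tested with edgeR 4.0.16 in R 4.3.3 (TMM, glmQLFit, glmQLFTest, two-sided, Benjamini-Hochberg over all genes tested, called at adjusted p under 0.05, no fold minimum); DESeq2 1.42.0 and limma 3.58.1 (voom with sample quality weights) were alternatives. CPM are counts over TMM-scaled totals, and SE is the log2 fold change over the root of its F value. For values with 1 number a library, group means were set against each other in an exact permutation test, two-sided (20 arrangements, smallest p 0.1). Lower bounds assume 3 reads over the group.

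The 37 gene lists and the comparison were chosen with earlier results of these data known. Named were the 12 largest rises and 12 largest falls outside the lists (called, mean of 10 CPM or more, no overlap, no predicted genes), 3 most abundant members and 2 largest called changes of each list, 4 myosins, the 8 genes of largest spread among pools (mean of 100 CPM or more), the 6 genes with most reads per library and genes called in all fits with 1 library left out. Other list members named in the text were chosen after their values were seen. Some genes that meet these rules are not reported here. There are 11 genes that stand in more than 1 list. Sequence sharing was measured by looking up 1 in 8 of the 50-base windows of each gene's transcripts in all other annotated transcripts. Promoters and starts are from RefSeq (GRCm38.p6).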

Additional observations from a re-analysis of the deposited data

How the results depend on the processing

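The direction of every shared call held under all alternatives, but the number of calls did not. Against 1307 calls (684 higher, 623 lower), there were 2535 with no filter on low counts (1343 and 1192), 3344 with DESeq2 (2414 higher) and 7194 with voom and quality weights (3164 and 4030), where pool 3 had a weight of 0.0789. RLE and upper-quartile factors, a stricter filter, a robust fit, and leaving out mitochondrial or noncoding genes stayed within 1.5 times of the 1307. With 1 library left out the calls ranged from 7 to 7920 (2 to 4132 higher, 5 to 3788 lower), lowest without muscle 1 and highest without pool 3. The cause was not tested. With the replicate number as a replicate block, 231 genes were called (128 higher, 103 lower), 229 of them among the 1307. The labels do not say that equal numbers mark a shared animal, and deviations of same-numbered libraries did not correlate (0.00, -0.13 and -0.04), so the numbers were not treated as pairs.

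A few genes that were not called with all libraries changed sign and were called under an alternative. With voom these were Eno3 (-0.84), Tpm1 (-0.83), Psmb6 (-0.91), Psma6 (-0.73), Map1lc3a (-0.73) and Cmbl (-1.42). With 1 library left out, log2 fold changes ran from -0.99 without pool 3 to 0.63 for Psmb6, from -0.83 to 0.82 for Psma6, from -0.79 to 0.43 for Map1lc3a, from -1.58 to 1.68 for Cmbl and from -0.75 to 0.71 for Chrna1. The Myh1 difference ran from -3.58 percentage points without pool 2 to 2.08 without pool 3. List medians changed sign with the scaling for triad, creatine and proteasome genes. With an offset of 1 the median SD was 0.618 among pools and 0.152 among muscle libraries. Low counts and 3 libraries a group limit precision, and a gene with few reads in 1 group has a fold change that rests on few molecules.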
